A study of Mus musculus with 2 samples.

Results

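New combinations of annotated splice sites were catalogued in long-read RNA-seq of the mouse adrenal gland. A transcript model of the class that the deposited tables call NIC uses only splice donors and acceptors that the GENCODE M21 annotation holds, but joins them in a chain of introns that no annotated transcript has. The models described here were chosen by their read counts: class NIC and 5 or more reads in each of 2 libraries, matched by chromosome, strand and the full intron chain. 374 models in 311 genes met this rule, of 21739 NIC chains read in either library and 3610 read in both. The libraries came from the adrenal glands of B6CASTF1/J females aged 25 days, an F1 hybrid whose parent strains are CAST/EiJ and C57BL/6J. There was 1 group, with no treatment and no second genotype, and the reads of the parental alleles are counted together. The labels number the libraries as biological replicates 1 and 2. They name the same animal in both library descriptions but a different animal in each tissue description, and give both the same donor label, so the spread between them may hold little difference between animals.

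A splice donor is the end of an exon where an intron begins, and an acceptor is the start of the exon after it. Introns are usually removed between the nearest such sites, but cells also skip whole exons, keep introns, or choose between neighbouring donors, acceptors, first exons and last exons. A long read can follow all the junctions of 1 molecule, so it shows which of these choices were made together. Where a choice moves the reading frame, translation meets another stop codon; a stop well upstream of the last exon junction is the usual signal for nonsense-mediated mRNA decay. The adrenal gland joins a steroid-producing cortex to a medulla of chromaffin cells, which make catecholamines.

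Replicate 1 held 426150 reads and replicate 2 held 770041 reads, of which 397176 and 712032 lay on annotated genes. The 374 models took 5578 reads in replicate 1, or 1.40% of reads on annotated genes (95% Wilson interval 1.37 to 1.44), and 9447 reads in replicate 2, or 1.33% (1.30 to 1.35). Their mean share was 1.37% ± 0.0549 (SD, n = 2, as in every SD below). They took 30.3% and 28.6% of all NIC reads. Intervals cover counting error only, since reads without molecular identifiers are not independent molecules. Cortex and medulla markers were high: Cyp11a1 had 11136 and 17191 reads, Star 4612 and 6329, and Chga 1916 and 3799. The kidney marker Umod had 0 reads in both, while the liver markers Alb, Apoa1 and Ttr had 32, 23 and 15 reads in replicate 1 and 1, 0 and 0 in replicate 2. Brown fat markers were present, with 209 and 199 reads of Ucp1.

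The sequences below carry the main kinds of difference. All were rebuilt from the GENCODE M21 transcript sequences on build mm10, 5′ to 3′ along the transcript. The first set shows acceptors 3 bases apart, in coding sequence. Capitals mark the 3 bases that the longer exon begins with and the shorter exon lacks.
Ctbp1, chr5:33248684-33248686, minus strand: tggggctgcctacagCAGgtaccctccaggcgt
Aes, chr10:81565472-81565474, plus strand: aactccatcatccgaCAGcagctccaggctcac
H2afy, chr13:56096232-56096234, minus strand: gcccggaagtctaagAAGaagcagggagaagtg
Hgs, chr11:120479087-120479089, plus strand: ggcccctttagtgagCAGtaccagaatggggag

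The next set shows elements of a few bases that set an annotated transcript apart from a very abundant model. In Phb2, Sept7 and Mpc1 capitals mark an annotated exon that the model lacks. In Oaz1 and Oaz2 capitals mark bases that the annotated transcript leaves out between exons and the model holds. Each has 15 exon bases on either side.
Phb2, chr6:124716425-124716430, plus strand: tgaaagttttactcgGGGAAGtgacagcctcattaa
Sept7, chr9:25265302-25265306, plus strand: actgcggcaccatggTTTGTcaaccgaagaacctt
Mpc1, chr17:8293415-8293418, plus strand: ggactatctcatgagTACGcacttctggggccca
Oaz1, chr10:80828292-80828295, plus strand: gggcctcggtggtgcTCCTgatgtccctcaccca
Oaz2, chr9:65686269-65686272, plus strand: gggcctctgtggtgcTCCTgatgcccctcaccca

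Skipped coding exons are shown for an immune ligand and for the enzymes of steroid synthesis. Capitals mark the exon that the model leaves out.
Cd47, chr16:49869018-49869080, plus strand: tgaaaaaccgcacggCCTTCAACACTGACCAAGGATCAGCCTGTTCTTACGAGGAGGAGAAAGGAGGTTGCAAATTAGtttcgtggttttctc
Cyp21a1, chr17:34804044-34804133, minus strand: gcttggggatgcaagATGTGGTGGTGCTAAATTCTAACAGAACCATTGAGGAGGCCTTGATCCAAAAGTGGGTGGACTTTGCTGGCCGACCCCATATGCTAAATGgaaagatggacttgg
Cyp11a1, chr9:58018194-58018393, plus strand: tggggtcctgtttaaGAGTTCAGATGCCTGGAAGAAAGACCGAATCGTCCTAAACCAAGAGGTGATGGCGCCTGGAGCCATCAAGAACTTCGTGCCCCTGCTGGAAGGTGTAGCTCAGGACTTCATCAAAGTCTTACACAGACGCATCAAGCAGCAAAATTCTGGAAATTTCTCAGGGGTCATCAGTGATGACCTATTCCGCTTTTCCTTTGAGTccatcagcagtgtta

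The last set shows retained introns. Each line holds the last 15 exon bases and the intron up to its first stop codon in the annotated frame, which is in capitals. The coordinates are those of the whole intron.
Srsf5, chr12:80947866-80949094, plus strand: agagtcagctggcaggtttgtTGA
Srsf7, chr17:80204388-80205261, minus strand: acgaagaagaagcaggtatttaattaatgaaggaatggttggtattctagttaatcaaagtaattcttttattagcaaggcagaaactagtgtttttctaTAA
Srsf3, chr17:29038625-29040774, plus strand: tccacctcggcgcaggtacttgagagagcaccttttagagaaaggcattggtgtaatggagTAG
Cyp11a1, chr9:58018394-58019292, plus strand: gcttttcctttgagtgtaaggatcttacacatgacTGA

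Most models were new joinings. Each chain was set against the closest annotated chain of its gene, and 257 of 374 (68.7%) differed by a new joining: another annotated donor, acceptor, first or last exon, or an annotated intron or exon of another transcript. A retained intron set 74 models (19.8%) apart, an exon skip 39 (10.4%), and 4 (1.07%) combined a new joining with a retained intron. Among the 21320 other NIC models of annotated genes, which had fewer reads or were read in 1 library only, these shares were 46.1% new joining, 28.5% retained intron, 13.5% exon skip and 11.8% mixed. In 324 of the 374 models (86.6%), every intron was itself annotated, and only the combination was new. That share was 66.3% of the other NIC models. No test was made between these sets, because read depth chose them.

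**Figure D1:**
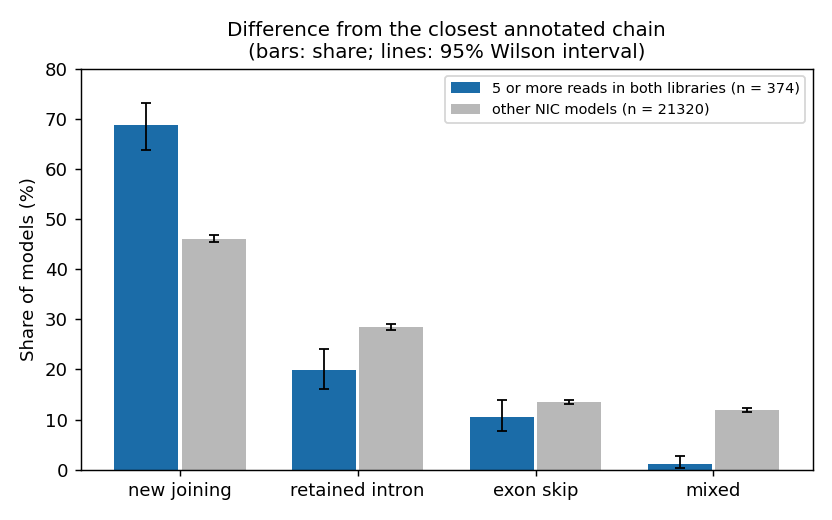
Share of models (%, vertical axis) by type of difference from the closest annotated chain, for the 374 models with 5 or more reads in both libraries (blue, left) and the 21320 other NIC models (grey, right); lines are 95% Wilson intervals. New joinings made up 68.7% of the blue and 46.1% of the grey models, whereas retained introns made up 19.8% and 28.5%.

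Within the new joinings, 68 models used another annotated acceptor, 68 another first exon, 51 another donor, 37 another last exon, 25 took an intron out of an annotated exon, 19 changed both ends of an intron, 13 took in an exon of another transcript, and 13 left an annotated intron unused. A model can count under more than 1 of these. The deposited models start at an annotated transcript start of their gene in 367 of 374 cases in both libraries, and end at an annotated end in 331. These exact matches describe how the models are recorded, not where single reads began or ended.

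The models ranged from rare forms to the main form of their gene. The minimum of 5 reads sets a floor on the share of a model in a weakly read gene, and the median gene had 58 reads in replicate 1 and 108 in replicate 2, so the shares describe models that this minimum chose. The median share of gene reads, the model's reads over all reads assigned to its gene, was 14.9% in replicate 1 and 13.2% in replicate 2. It was 17.9% and 17.2% for new joinings, 13.9% and 12.5% for exon skips, and 8.01% and 5.72% for retained introns. The genes differed in depth in the same order. Their median reads in replicates 1 and 2 were 48 and 88 for new joinings, 58 and 94 for exon skips, and 112 and 198 for retained introns. The models themselves had a median of 8 reads in replicate 1 in each of these types. The part of gene depth in the shares by type was not tested. At least 10% of gene reads in both libraries went to 218 models (58.3%), and at least 50% to 31. In both libraries 156 models had more reads than their closest annotated transcript, and for 68 that transcript had no read at all. The model was the most read spliced form of its gene in both libraries in 89 cases: 75 new joinings, 10 exon skips and 4 retained introns. The 4 include Oaz1 and Oaz2, whose models hold annotated gaps of 4 bases and keep no intron of ordinary length. The 10 exon skips include Phb2 and Sept7, whose models lack annotated exons of 6 and 5 bases. In bulk tissue, a form made by few cells and a form made at a low rate by every cell cannot be told apart.

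**Figure D2:**
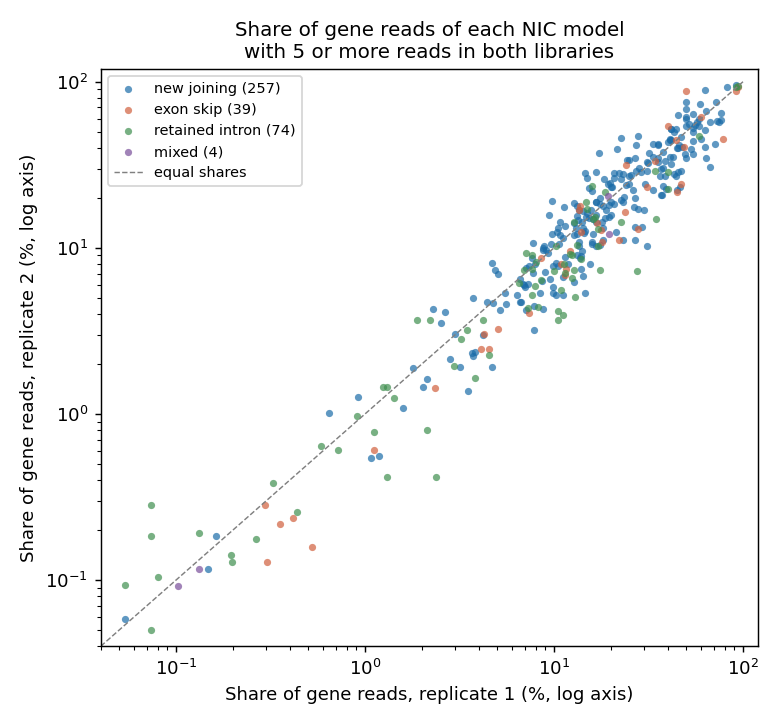
Share of gene reads of each of the 374 models in replicate 1 (horizontal) and replicate 2 (vertical), in percent on log axes, coloured by type; the dashed line marks equal shares. Shares run from 0.0501% to 95.5%; models read in 1 library only are left out by the rule, so the spread about the line is narrowed by it.

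Shares in the libraries can be compared only within the rule, which leaves out models with few or no reads in 1 library. For the 374 models, replicate 1 minus replicate 2 was 0.910 percentage points at the median (quartiles -1.30 and 4.57). Fisher's exact test of a model's reads against the other reads of its gene, two-sided with Benjamini-Hochberg adjustment over 9450 spliced models, called 1 of the 374 (0.267%), against 0.233% of all models tested. The models tested needed only 10 reads summed over both libraries, and the rule leaves out the largest differences, so nothing is read from these shares. The test compares these libraries only and covers counting error only. An unadjusted p under 0.05 was reached by 22 of the 374 (5.88%), against 5.41% of all models tested. The 1 model called lies in Th, which encodes tyrosine hydroxylase, the enzyme that begins catecholamine synthesis. It keeps 3 introns and had 20 of 842 gene reads in replicate 1 (2.38%, 1.54 to 3.64) and 5 of 1206 in replicate 2 (0.415%, 0.177 to 0.967). Its adjusted p was 0.048 by Fisher's exact test, and 0.0504 when only spliced reads made up the gene total.

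The most read model was that of Oaz1, ornithine decarboxylase antizyme 1, whose protein restrains polyamine synthesis. Antizymes are known for a programmed ribosomal frameshift that takes translation past a stop codon in the first frame. The Oaz1 model had 723 of 766 gene reads in replicate 1 (94.4%, 92.5 to 95.8) and 1413 of 1505 in replicate 2 (93.9%, 92.6 to 95.0). It differs from the annotated transcript only by the 4 bases in capitals above, which the annotation leaves out as a gap between exons. Read without a frameshift, the model meets a TGA after 68 codons, and that stop codon begins with the last of these 4 bases. The annotated protein has 226 residues. Oaz2, a second antizyme, showed the same arrangement: its model had 84 of 92 reads (91.3%) in replicate 1 and 155 of 168 (92.3%) in replicate 2. It too differs by 4 bases, TCCT, and its TGA begins with the last of them, after 32 codons. No annotated transcript with either gap had a read in either library. Whether an alignment could record a gap of 4 bases as an intron was not tested, so nothing is read from this absence. The type retained intron covers both, by rule, although no intron of ordinary length is kept.

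Very short annotated exons gave further models near 90% of gene reads. Phb2, which encodes a scaffold protein of the mitochondrial inner membrane, had a model without an annotated 6-base exon, with 121 of 128 reads (94.5%, 89.1 to 97.3) in replicate 1 and 209 of 224 (93.3%, 89.2 to 95.9) in replicate 2. Its frame gives 297 residues in place of 299. Mpc1 encodes a subunit of the mitochondrial pyruvate carrier. Its model joins across an annotated 4-base exon, is counted by rule under other first exon, and took 96 of 104 reads (92.3%) and 171 of 179 (95.5%). Sept7 encodes a septin, a filament-forming GTPase of the cell cortex. Its model lacks a 5-base exon and took 36 of 39 reads (92.3%) and 69 of 78 (88.5%), and its frame stops after 25 codons, against 437 in the annotated protein. None of these short exons was in any read of the gene's models in either library. The files hold models and not reads, so whether the missing bases were present in the reads but could not be placed was not tested.

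In all, 14 of the 374 models (3.74%) equal an annotated chain once annotated exons and gaps of under 30 bases are closed. They held 1150 of the 5578 reads in replicate 1 (20.6%) and 2186 of 9447 in replicate 2 (23.1%), and among them are the 4 models with 90% or more of gene reads in both libraries. Without these 14, the models took 1.07% of reads on annotated genes in place of 1.37%.

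**Figure D3:**
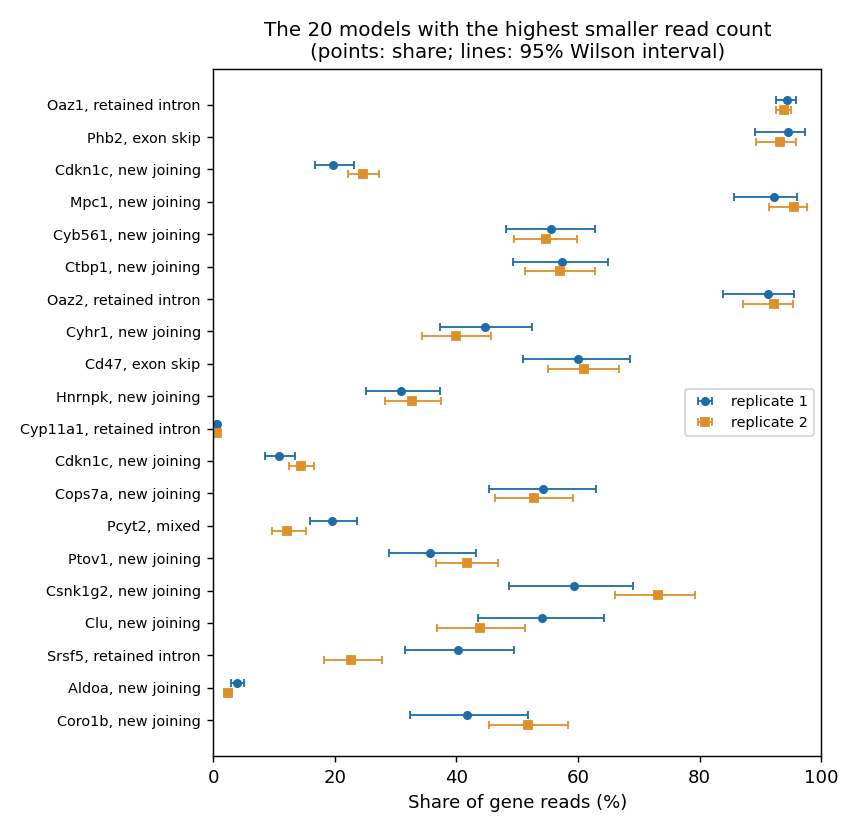
Share of gene reads (%, horizontal axis) of the 20 models with the highest smaller read count, in replicate 1 (blue circles) and replicate 2 (orange squares), with 95% Wilson intervals. Oaz1, Phb2, Mpc1 and Oaz2 lie above 90% in both libraries, and the intervals of the libraries, which cover counting error only, do not meet for Srsf5 and Pcyt2, whose adjusted p by Fisher's exact test was 0.20 and 0.42.

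Hnrnpk, which encodes an RNA-binding protein that itself acts in splicing, showed a related case. Its 3 models share 1 junction that joins annotated sites but is no annotated intron, and 191 of 199 reads at these sites in replicate 1 (96.0%, 92.3 to 97.9) and 381 of 389 in replicate 2 (97.9%, 96.0 to 99.0) hold it. The junction passes over an annotated 16-base exon at chr13:58393853-58393868, minus strand, and the exon before it runs on for 16 bases past another annotated donor. These stretches read as follows.
Hnrnpk annotated exon, passed over: GGTGGTTCTGGATATG
Hnrnpk bases held by the models, chr13:58394060-58394075: GTTGAGTATCAATAAT
They are equal at 8 of 16 places. The most read of the 3 models had 67 of 217 gene reads (30.9%) and 134 of 410 (32.7%), and its frame ends after 368 residues in place of 464. For Hnrnpk too, it was not tested whether the bases of the short exon were in the reads but could not be placed. The frame given here holds only if the models record these bases correctly. The 3 models are not among the 14 above.

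Over all models, 52 junctions were outside the annotation although both of their sites were annotated, in 50 models. Their median share of the reads at the same donor or acceptor was 26.9%, and 12 held 90% or more. The 12 include the junctions across short annotated exons of Mpc1, Sept7, Map4k5 and Hnrnpk, and junctions of CAAA01118383.1 and Gm21887. Reads that keep the intron are not counted in this measure, by which Srd5a2 had 57 of 57 and 61 of 61 reads. Among the 14 such junctions of models with 10 or more reads in each library, the median was 71.1%. Among them was a 59-base intron inside an annotated exon of Srd5a2, which encodes a steroid reductase that makes dihydrotestosterone. Of the reads that cover it, 57 of 70 in replicate 1 (81.4%, 70.8 to 88.8) and 61 of 105 in replicate 2 (58.1%, 48.5 to 67.1) had it spliced out, and the intervals do not meet. It leaves the protein as annotated. A scaffold gene, CAAA01118383.1, gave 1 model with 5 such junctions, and Gm21887 gave 1; both genes have near-identical copies, so their reads may be split.

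Acceptors 3 bases apart were the most frequent shift. Of the 68 acceptor changes, 31 (45.6%) moved the exon start by exactly 3 bases, against 1 of 51 donor changes (1.96%). In the other NIC models these shares were 734 of 3187 acceptor changes (23.0%) and 31 of 2550 donor changes (1.22%). The 31 changes fall on 29 distinct acceptor pairs. In all 29 the 3 bases were NAG (on the transcript strand), 24 of them CAG; the AG stands directly before the downstream acceptor, as the usual acceptor sequence does. The first 3 bases of the exon were NAG at 5.53% of all annotated acceptors of protein-coding genes. Because both acceptors of each pair are annotated, the usual acceptor sequence already calls for this AG. Nothing is therefore read from the difference between these shares. The shorter exon was that of the model in 23 of the 31, and in 27 the protein changed by 1 residue.

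The 29 pairs ranged widely in use. The acceptor of the model took on average 7.25% of the reads of both acceptors at the lowest pairs, Aes and Metap2, 41.2% at the median pair, and all reads in Map4k5. Map4k5 had only 7 and 12 reads at its pair. Its model also lacks an annotated 3-base exon, and equals an annotated chain once that exon is closed. Ctbp1, a transcriptional corepressor, used the longer exon in 125 of 147 reads (85.0%) in replicate 1 and 226 of 270 (83.7%) in replicate 2. H2afy, which encodes the histone variant macroH2A, used the shorter exon in 48 of 80 reads (60.0%) and 81 of 117 (69.2%). Hgs, a protein of endosomal sorting, used it in 53 of 67 reads (79.1%) and 40 of 58 (69.0%). Aes, a corepressor of the Groucho family, used it in 39 of 539 (7.24%) and 75 of 1033 (7.26%). Fkbp8, an immunophilin that anchors in mitochondrial membranes, used it in 64 of 333 (19.2%) and 121 of 618 (19.6%). The libraries differed by 4.01 percentage points at the median pair, and by most in Hdac5, with 5 of 13 reads (38.5%, 17.7 to 64.5) and 26 of 38 (68.4%, 52.5 to 80.9).

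**Figure D4:**
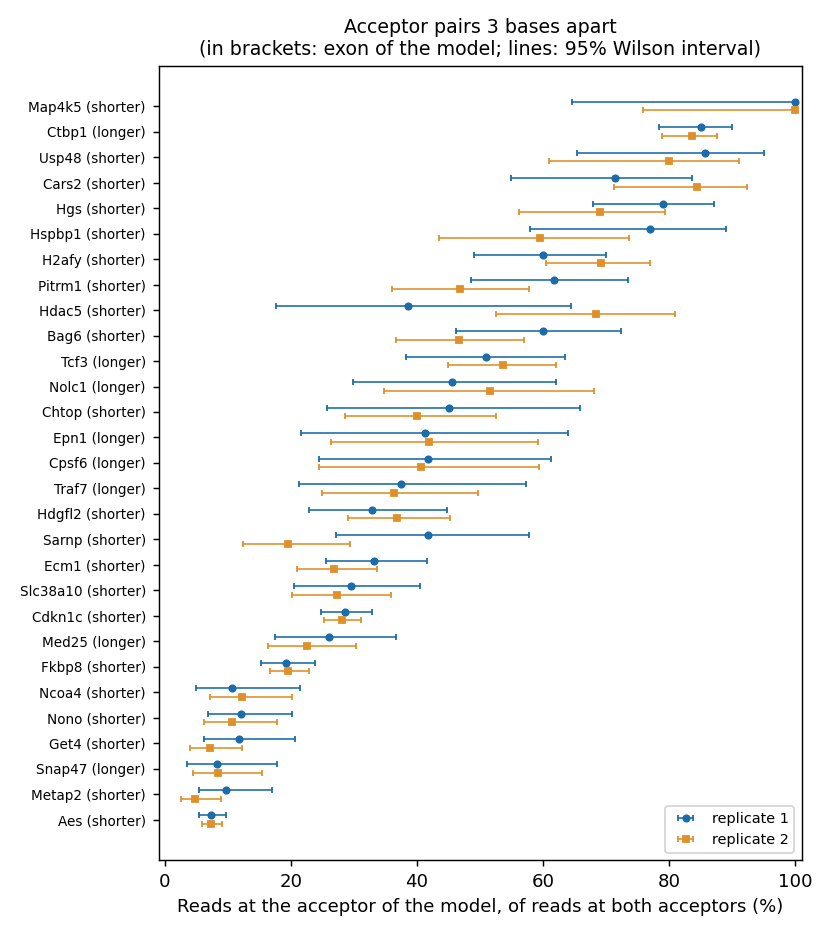
Reads at the acceptor that the model uses, as a percentage of the reads at both acceptors of each pair 3 bases apart (horizontal axis), in replicate 1 (blue circles) and replicate 2 (orange squares), with 95% Wilson intervals; brackets say whether the model has the longer or the shorter exon. Aes lies at 7.24% and 7.26%, Ctbp1 at 85.0% and 83.7%.

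Larger choices of exon gave other main forms. Cd47, the surface protein that signals to phagocytes not to engulf a cell, lacked a 63-base exon in the model that took 69 of 115 gene reads in replicate 1 (60.0%, 50.9 to 68.5) and 163 of 267 in replicate 2 (61.0%, 55.1 to 66.7). Over all models of the gene, 77.0% and 76.4% of the reads across this exon skipped it, and the frame gives 303 residues in place of 324. Cyb561 encodes the cytochrome of chromaffin granule membranes. Its model joined another annotated first exon to the annotated coding exons, and had 95 of 171 reads (55.6%, 48.1 to 62.8) and 188 of 344 (54.7%, 49.4 to 59.8). The annotated protein of 250 residues is kept. Csnk1g2, a casein kinase, had an 81-base intron taken out of an annotated exon in the model that took 51 of 86 reads (59.3%) and 128 of 175 (73.1%). Of the reads that cover it, 61 of 72 (84.7%) and 136 of 154 (88.3%) had it spliced out, and the protein is 27 residues shorter at 415 in place of 442. Cdkn1c, an imprinted inhibitor of cyclin-dependent kinases, had 4 such models. The most read took 117 of 594 reads (19.7%, 16.7 to 23.1) and 263 of 1070 (24.6%, 22.1 to 27.2), with 347 residues against 335.

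Other models among the most read changed 1 end or 1 junction. For each, the share of gene reads is that of the model, and where the use of the changed junction is given it is over all models of the gene. Clu, which encodes a secreted chaperone, had a model with another first exon that took 46 of 85 gene reads (54.1%) in replicate 1 and 79 of 180 (43.9%) in replicate 2. In Coro1b, which encodes an actin-binding coronin, a model with another donor took 40 of 96 gene reads (41.7%) and 115 of 222 (51.8%), and its junction was in 46 of 91 reads (50.5%) and 127 of 212 (59.9%) at these sites. In Aldoa, the glycolytic aldolase, a model with another first exon took 44 of 1148 gene reads (3.83%) and 46 of 1940 (2.37%). These models of Clu, Coro1b and Aldoa read the annotated protein. In Cops7a, which encodes a subunit of the COP9 signalosome, a model with another acceptor took 64 of 118 gene reads (54.2%) and 122 of 231 (52.8%). Its junction was in 93 of 97 reads (95.9%) and 165 of 194 (85.1%) at these sites, and its frame ends at another stop codon, after 275 residues in place of 277. The Ptov1 model with an intron taken out of an annotated exon had 60 of 168 gene reads (35.7%) and 145 of 348 (41.7%). The intron was spliced out in 72 of 166 covering reads (43.4%) and 187 of 342 (54.7%), and the annotated protein is kept. The Cyhr1 model with another last exon had 72 of 161 gene reads (44.7%) and 113 of 283 (39.9%). Its last junction was in 75 of 129 reads (58.1%) and 115 of 204 (56.4%), and its frame ends at another stop codon after 399 residues in place of 412. The Slc45a4 model with another first exon had 18 of 25 gene reads (72.0%) and 25 of 33 (75.8%), all reads at its first junction hold it, and it keeps the annotated protein.

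How the reading frame continued differed by type. Each model was read from the start codon of the closest annotated protein-coding transcript with a complete coding sequence. Other annotated start codons of the gene were not tried. In this way 309 models could be read to a stop codon from the sequences at hand. Of these, 109 (35.3%) gave the annotated protein, 86 (27.8%) reached the annotated stop codon with another length, 91 (29.4%) met another stop more than 50 bases before the last exon junction, and 23 (7.44%) another stop elsewhere. Among retained introns, 44 of 48 met such an early stop. Among exon skips, 22 of 35 stayed in frame with another length and 10 met an early stop. Among new joinings, 104 of 224 gave the annotated protein, 63 another length and 36 an early stop. Of single skipped exons, 21 of 37 had a length divisible by 3, and so did 1216 of 2698 (45.1%) in the other NIC models.

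**Figure D5:**
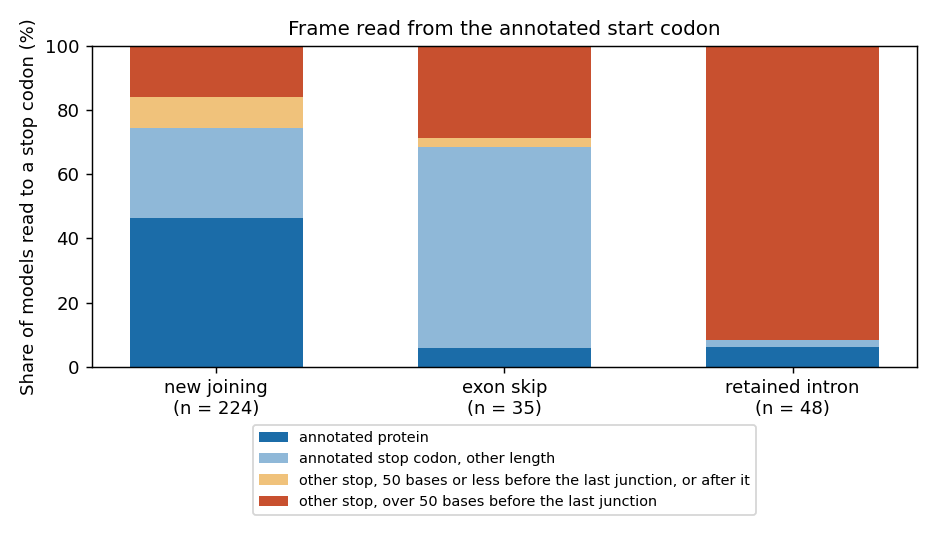
Outcome of reading the annotated frame, as a percentage of the models that could be read to a stop codon (vertical axis), for 224 new joinings, 35 exon skips and 48 retained introns. The early stop, over 50 bases before the last junction, covers 44 of the 48 retained introns, 10 of the 35 exon skips and 36 of the 224 new joinings. The 44 include 4 models that hold only annotated gaps of under 30 bases, and 23 models with retained introns are left out because their sequence was not covered.

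Retained introns with early stops lay in 3 genes of SR proteins, Srsf3, Srsf5 and Srsf7. SR proteins are a family of RNA-binding proteins that promote exon use and are known to control their own mRNAs through stretches with stop codons. The most read spliced form of Srsf5 was the model that keeps a 1229-base intron, with 45 of 112 gene reads in replicate 1 (40.2%, 31.6 to 49.4) and 66 of 291 in replicate 2 (22.7%, 18.2 to 27.8). The share was 17.5 percentage points higher in replicate 1, with an adjusted p of 0.20 by Fisher's exact test. Over all spliced models, 76 of 97 reads (78.4%, 69.2 to 85.4) and 154 of 248 (62.1%, 55.9 to 67.9) kept this intron. These intervals of the libraries do not meet. The intron brings a TGA after its first 6 bases. Srsf7 kept an 874-base intron in 16 of 28 reads (57.1%) and 29 of 61 (47.5%), and Srsf3 a 2150-base intron in 7 of 60 (11.7%) and 8 of 144 (5.56%). Vegfa, the vascular growth factor, kept an 826-base intron in 44 of 121 reads (36.4%) and 38 of 142 (26.8%). Pcyt2, an enzyme of phosphatidylethanolamine synthesis, kept a 379-base intron in 169 of 367 (46.0%) and 209 of 485 (43.1%), in 3 of its 4 models. Whether such reads come from finished mRNA or from RNA still being spliced was not tested.

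Genes of steroid synthesis held 20 of the models in 5 of their 24 genes with 20 or more reads in each library (20.8%), beside 264 of all 3926 such genes (6.72%). Read depth moves with this share: in 4 classes of such genes by read count, 4.80% of the least read and 16.3% of the most read held a model, and the middle classes were not in order. Its part in the shares of the lists was not tested. The 20 models were 12 retained introns, 4 new joinings, 2 exon skips and 2 mixed. They took 1.14% and 1.25% of the reads of their 5 genes, and none reached 10% of its gene.

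Cyp11a1, the side-chain cleavage enzyme that turns cholesterol into pregnenolone, held 6 of them. The annotated transcript closest to 5 of these had 4490 reads in replicate 1 and 7174 in replicate 2. The most read of the 6 keeps 1 intron and had 65 of 11136 gene reads (0.584%) and 110 of 17191 (0.640%). A model without the 200-base exon shown above had 34 reads (0.305%) and 22 reads (0.128%), and its frame ends after 190 residues in place of 526. The 899-base intron shown above was kept in 383 of 5112 reads that cover it in replicate 1 (7.49%, 6.80 to 8.25) and 69 of 7596 in replicate 2 (0.908%, 0.718 to 1.15), over all spliced models of the gene. These intervals do not meet, but the models that met the rule and keep this intron held 22 and 6 reads in replicate 1, and 22 and 16 in replicate 2, so most of the difference lies outside them. Cyp21a1, the steroid 21-hydroxylase, held 10 models. One kept a 105-base intron, with 22 of 6764 reads (0.325%) and 46 of 11972 (0.384%). The model without the 90-base exon shown above had 24 reads (0.355%) and 26 reads (0.217%), and over all models 25 of 5724 and 29 of 10058 reads skipped this exon. Its frame is kept, with 457 residues in place of 487. Cyp21a1 has a near-identical pseudogene, so reads of the pair may be split. Fdxr, the reductase that passes electrons to the mitochondrial steroid enzymes, had the model with the highest share: 27 of 554 reads (4.87%) and 68 of 930 (7.31%), with another acceptor and 476 residues in place of 494. Star, which carries cholesterol into mitochondria, and Cyp11b1, which makes corticosterone, had 1 model with a retained intron each, with 9 reads in either library for Star and 8 in either for Cyp11b1.

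Chromaffin genes held 7 models in 3 of 14 genes (21.4%): Cyb561 with 2, Th with 3 retained introns, and Chga with 2 exon skips. Chga encodes chromogranin A, the main soluble protein of the granules. The model without its 69-base exon had 8 of 1916 gene reads (0.418%) and 9 of 3799 (0.237%), and the model without its 47-base exon had 10 (0.522%) and 6 (0.158%). The second Cyb561 model took in an exon of another transcript, with 8 of 171 reads (4.68%) and 28 of 344 (8.14%). Regulators of the adrenal gland held 2 models in 2 of 17 genes (11.8%). Pde8b, a cAMP phosphodiesterase, had 1 with 12 of 43 reads (27.9%) and 10 of 58 (17.2%). Gnas, the stimulatory G protein alpha subunit, had 1 with 5 of 770 (0.649%) and 13 of 1278 (1.02%). The Gnas model equals an annotated chain once a 24-base exon is closed.

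Splicing regulators held 15 models in 11 of 51 genes (21.6%), with 18.3% and 17.5% of the reads of these genes. The 3 Hnrnpk models, which share the junction over a short exon, gave 67, 23 and 19 of the 244 reads in replicate 1. In replicate 2 they gave 134, 43 and 40 of 439. Of the 15, 10 were new joinings, 4 retained introns and 1 an exon skip. Mbnl2, which regulates splicing in differentiation, had a model with 10 of 22 reads (45.5%) and 31 of 49 (63.3%). Cholesterol synthesis genes held 5 models in 5 of 25 genes (20.0%): Dhcr7, Hmgcs1, Insig1, Mvk and Srebf1. Chaperones held 3 in 44 genes (6.82%), lysosomal genes 3 in 39 (7.69%), respiratory chain genes 3 models in 2 of 82 (2.44%), proteasome genes 1 in 36 (2.78%) and translation factors 1 in 37 (2.70%). Ribosomal protein genes held none in 80 genes. These shares are descriptions beside 6.72% of all genes, with no test.

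The threshold of 5 reads cut through a continuous range. The smaller count was exactly 5 in 82 models and 10 or more in 129. Just inside were Cyp21a1 with 5 and 34 reads, Cyp21a1 with 5 and 22, Th with 20 and 5, Chtop with 5 and 18, and Lrrc57 with 5 and 18. Just outside were Nlrx1 with 4 and 20 reads, Map7d1 and Meg3 with 4 and 17 each, and Akt1s1 and Cir1 with 4 and 16 each.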

How the data were processed

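Long-read RNA-seq was deposited for 2 libraries of 1 group. The authors deposited, for each library on its own, whole read counts per transcript model with the model's class, on mm10 and GENCODE M21 per the deposited read-me text. Column and attribute names are those of the program TALON, per the file headers; the aligner and program versions are not given in the sources used here. All 141862 annotated transcripts in the deposited annotations had the exons of GENCODE M21. NIC models were matched by chromosome, strand and intron chain. The closest annotated chain had the fewest differing introns within the model's span, then over the whole chain, then the most reads. Sequence came from GENCODE M21 transcripts (1605093 bases rebuilt, 0 with 2 readings); bases in no annotated exon were not read. Shares carry 95% Wilson intervals. Fisher's exact tests with Benjamini-Hochberg adjustment (threshold 0.05) covered spliced models with 10 or more reads summed, and were tested on simulated data. Python 3.11.15, numpy 2.4.6 and scipy 1.17.1 were used.

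The models and gene lists were chosen with earlier results of these data known. Genes were named by rule: the 20 models with the highest smaller count, the 10 with the highest smaller share in genes of 20 or more reads, the 5 most read of each type, all of the steroid, chromaffin and adrenal regulator lists, those past the threshold, and those beside the minimum of 5 reads. Other genes were named after their values were seen. One gene that the rule names is not reported here.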

Additional observations from a re-analysis of the deposited data

How the results depend on the processing

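The number of models follows the read minimum: 745 at 3 reads in each library, 129 at 10, and 491 to 934 when 1 library alone sets the 5 reads (934 without replicate 1). The percentages of new joining, retained intron, exon skip and mixed stayed within their Wilson intervals under the 4 alternatives run for them; 18 of 362 models changed type when only annotated transcripts with reads were used. The median share of gene reads was 14.8%, and it was 18.7% of annotated and NIC reads, 21% at 10 reads, and 13.2% to 14.9% when 1 library was left out. The share of all reads held was 1.29% over all mouse reads, and, chosen after seeing the data, 1.07% without the 14 models that differ only by short exons or gaps and 1.17% without Oaz1. Without a filter on low counts 13 spliced models were called in place of 22 and 0 of the 374; over spliced reads only, 0 of the 374 were called, since the adjusted p of the Th model became 0.0504 by Fisher's exact test (0.446 without the filter, 0.036 with 20 or more reads summed). At 10 reads, also chosen after seeing the data, the median junction share was 71.1%, and 2.62% of all genes, 11.8% of splicing regulators and 12.5% of steroid synthesis genes held a model. No paired analysis was possible because there is 1 group. The p-values treat reads as independent and cover counting error only. Depth limits models of weakly read genes: a 5-read minimum cannot show a form below that in the shallower library.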

Other observations

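Some models took an intron out of an exon of the closest annotated chain, a group named here after its values were seen. All of these introns but that of Srd5a2 are annotated introns of other transcripts. The 899-base intron of Cyp11a1, which other models keep, is 1 of them. There were 27 introns taken out in this way, 59 to 974 bases long, 9 of them divisible by 3 in length. Of the 27, 19 were spliced out in over 50% of the covering reads in both libraries. Covering reads either splice out the intron or keep it, so reads with another junction at its donor or acceptor are not counted. In Cnbp, a nucleic acid binding protein, a 141-base intron was spliced out in 58 of 60 covering reads (96.7%) in replicate 1 and 135 of 142 (95.1%) in replicate 2. Of all reads with a junction at its donor or acceptor, only 58 of 274 (21.2%) and 135 of 495 (27.3%) held this intron. In Rnf181, a ubiquitin ligase, a 232-base intron was spliced out in 150 of 163 (92.0%) and 420 of 433 (97.0%). In Srsf1, an SR protein, an 881-base intron was spliced out in 11 of 32 (34.4%, 20.4 to 51.7) and 31 of 46 (67.4%, 53.0 to 79.1), and the intervals of the libraries do not meet. Nor do they for a 392-base intron of Akap8l, the intron of Srd5a2 and the 899-base intron of Cyp11a1. No test was made of these introns, and the intervals cover counting error only.

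A few weakly read genes were read mostly as a new combination. Gbe1, the glycogen branching enzyme, had 14 of 17 reads (82.4%) in replicate 1 and 29 of 31 (93.5%) in replicate 2 in a model that keeps its 702 residues, and its closest annotated transcript had no read. Uchl3, a deubiquitinase, had 12 of 19 (63.2%) and 41 of 46 (89.1%) in a model whose frame ends after 23 codons in place of 230. That frame starts at the start codon of 1 annotated transcript, and others were not tried. The changed junction is itself an annotated intron, held by 15 of 16 and 46 of 46 reads at its sites. Ints13, a subunit of the Integrator complex, had a model without a 78-base exon with 5 of 10 gene reads and 15 of 17, and 6 of 8 and 17 of 17 reads across this exon skipped it. With so few reads these shares have wide intervals.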
